A study of Mus musculus with 8 samples.

Results

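The genes described here carry fatty acids from the blood into the muscle fibre and through mitochondrial beta-oxidation. They comprise uptake proteins, acyl-CoA synthetases, the carnitine shuttle, the oxidation enzymes, an acyl-CoA thioesterase, lipid droplet coat proteins and uncoupling proteins. The members were chosen from a list of 39 gene symbols by matching the gene column of the deposited table, and 34 of the 39 were found among its 23930 targets. Fabp3, Cpt1b, Hadhb, Acot1 and Acot2 were not analysed here. Expression was measured in the TA (tibialis anterior), a mostly fast muscle of the shin, in 4 WT and 4 KO libraries, numbered 1 to 4 in each group. The KO mice carried HSA-Cre, a tamoxifen-inducible recombinase under a skeletal muscle actin promoter, together with loxP sites in Sdhc, which encodes a membrane anchor of succinate dehydrogenase (complex II). WT mice came from the same litters and carried the Cre without loxP sites. Both groups received tamoxifen at 12 weeks of age, and muscle was collected 3 weeks later. All WT labels name the strain C57BL/6, whereas each KO label carries a different number after C57BL/. Because the promoter is active in muscle fibres, other cells of the muscle would keep Sdhc.

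Fatty acids are released from circulating lipoproteins by lipoprotein lipase, enter the fibre through membrane and cytosolic binding proteins, and are activated to acyl-CoA. The carnitine shuttle moves the acyl group into mitochondria, where repeated rounds of dehydrogenation, hydration, dehydrogenation and thiolysis release acetyl-CoA. The acyl-CoA dehydrogenases pass electrons through the electron transfer flavoprotein to ubiquinone, the same acceptor that complex II uses. Oxidative fibres rely on this route most, and many of its genes are known targets of PPAR and ERR nuclear receptors.

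Values are RPM, the reads of the 1 amplicon of a gene scaled to a common library total. The libraries held 5983175 to 9119006 reads, and the detection floor of 3 reads lay between 0.329 and 0.501 RPM. Sdhc had means of 797 ± 62.6 RPM (WT) against 34.1 ± 19.1 RPM (KO) (SD, n = 4 each), so the KO libraries kept 4.28% of the WT level, in the direction of the labels. Muscle identity was clear, with 5 general muscle genes, among them Ckm and Acta1, summing to 40717 to 49029 RPM. Bone genes were unequal between libraries. A list of 6 (Ibsp, Acp5, Ctsk, Mmp9, Phex, Dmp1) summed to 308, 44.6, 14.4 and 712 RPM across the WT libraries and 1.85 to 13.2 RPM across KO, with Dmp1 at 0 in 3 KO libraries and Ctsk at 0 in 1. Phex alone went the other way, with means of 0.85 RPM (WT) against 1.73 RPM (KO). Estimates that moved by over 1.5 times without WT1 and WT4 are therefore given with that value; Angptl4 did not pass the filter on low values without them.

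The comparison of KO with WT asks whether the fatty acid genes differed 3 weeks after the loss of Sdhc. None of the 34 members passed limma's test on log2(RPM + 1) at an adjusted p of 0.05, with Benjamini-Hochberg (BH) adjustment over the 11004 targets of at least 1 RPM on average, where 0.0273% of all targets passed. The smallest adjusted p among the members was 0.368, for Acsl5. At an unadjusted p under 0.05 there was 1 member, Acsl5, and it was lower in KO. Of all targets tested, 9.22% reached that level, 8.56% lower and 0.663% higher in KO. edgeR on the recovered reads and DESeq2 each called 0 members after adjustment. At an unadjusted p under 0.05, edgeR had 2 members higher in KO (Acadm and Eci2) and 1 lower (Acsl5), where 2.73% of all targets were higher and 7.34% lower. DESeq2 had 3 members higher (Acadvl, Acadm and Eci2) and 1 lower (Acsl5), where 2.85% of all targets were higher and 6.52% lower. In no member did the 4 KO libraries all lie above or all below the 4 WT libraries, against 0.536% and 4.56% of all targets.

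Most members had a small estimated difference. The log2 fold change (KO against WT) was above 0 in 22 and below 0 in 12 members, with a median of 0.06, beside -0.05 over all targets tested. Above 0 lay 64.7% of the members and 40.8% of all targets. The 95% interval lay within a 2-fold change in either direction for 30 members and within 1.5-fold for 23. The 4 wider intervals belonged to Angptl4, Acsl5, Ucp2 and Ucp3. The direction of the median rested on WT1 and on KO1 among single libraries. It was -0.04 without WT1, -0.0018 without KO1, 0.16 without WT2 and -0.14 without WT1 and WT4, when only 6 members lay above 0. In the same order, the median of all targets in these fits was -0.07, -0.07, -0.04 and -0.10. The median of the members thus stayed above that of all targets without WT1, KO1 or WT2, and lay below it without WT1 and WT4. All 34 members passed the filter of a mean of 1 RPM, but Angptl4 and Acad10 averaged under 1 RPM in KO and passed through their WT level.

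**Figure D1:**
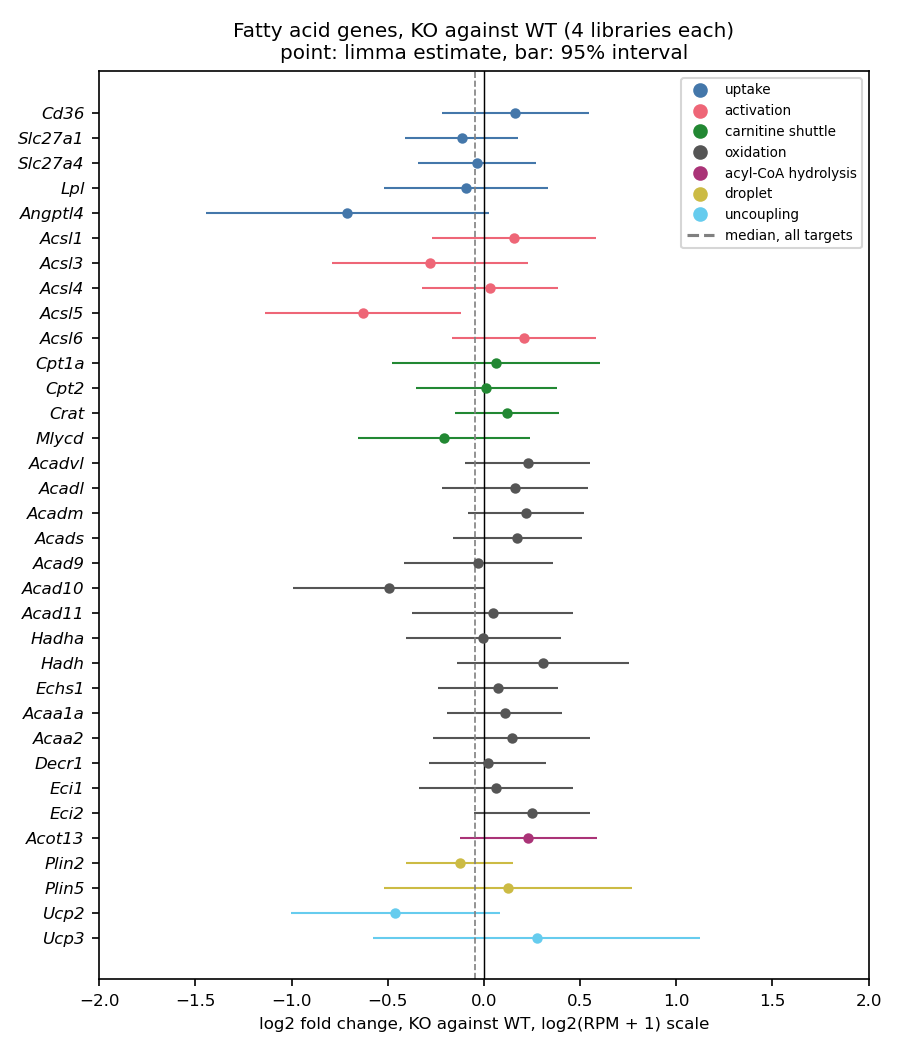
Log2 fold change of each of the 34 fatty acid genes in KO against WT on the log2(RPM + 1) scale, with its 95% interval from limma, coloured by step. The dashed line is the median of all targets tested (-0.05). The intervals of all genes but Acsl5 cross 0, and that of Acsl5 runs from -1.14 to -0.12.

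Among the uptake genes, Cd36, the main membrane fatty acid translocase of muscle, had the highest RPM. It read 194, 349, 305 and 254 RPM across the WT libraries and 361, 334, 257 and 267 RPM across the KO libraries. WT1 was the lowest library and the other WT values spanned those of KO apart from KO1. The log2 fold change was 0.16 (95% interval -0.22 to 0.55, limma with BH, adjusted p = 0.891). Lpl, which hydrolyses the triglycerides of lipoproteins, had means of 173 ± 45.0 RPM (WT) against 161 ± 34.7 RPM (KO), with a log2 estimate of -0.09 that was -0.36 without WT1 and WT4. The transport proteins Slc27a1 and Slc27a4 had means of 149 and 21.2 RPM (WT) against 137 and 20.5 RPM (KO), and the log2 estimate of Slc27a1 was -0.12, or -0.26 without WT1 and WT4. In bulk muscle, fewer cells of a type and less RNA per cell cannot be told apart, and Cd36 and Lpl are also expressed by adipocytes, with Cd36 in capillary endothelium too. The 7 adipocyte genes summed to 226 to 288 RPM across WT and 180 to 225 RPM across KO, most of it Fabp4. Fabp4 alone read 200 to 259 RPM across WT and 163 to 213 RPM across KO, with overlap, so the sum mostly reflects this 1 gene. Cfd, the adipocyte protease adipsin, read 21.4, 21.7, 9.18 and 17.2 RPM across the WT libraries and 6.85, 12.2, 2.85 and 7.75 RPM across the KO libraries. Its groups overlapped in WT3 and KO2, with a log2 difference of -1.19 (limma with BH, adjusted p = 0.195), and the part of adipocytes in the uptake genes was not tested. The defining adipocyte genes Adipoq, Plin1 and Lep were at most 1.83 RPM in any library, and Lep was at 0 in 4 libraries. The 7 endothelial genes summed to 374 to 430 RPM across WT and 360 to 404 RPM across KO.

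Angptl4, a secreted inhibitor of lipoprotein lipase, was near the floor of detection. It read 0.877, 2.71, 0.532 and 2.68 RPM across the WT libraries and 0.501, 0.141, 1.61 and 0.231 RPM across the KO libraries, resting on 4 to 22 reads in WT and 1 to 13 reads in KO. WT2 and WT4 were high and KO3 lay above WT1 and WT3, so the groups overlapped. Its log2 fold change of -0.71 (limma with BH, adjusted p = 0.567) understates the ratio of means at this level.

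Of the acyl-CoA synthetases, which activate fatty acids, Acsl5 had the lowest unadjusted p of all members (0.019, limma). Acsl5 (chromosome 19, 55251938 to 55297720, plus strand, GRCm38) read 9.54, 6.86, 5.59 and 9.75 RPM across the WT libraries and 7.19, 4.50, 2.97 and 4.75 RPM across the KO libraries. WT1 and WT4 were highest, and KO1 lay above WT2 and WT3. The means were 7.93 ± 2.04 and 4.85 ± 1.74 RPM (SD, n = 4 each). The log2 difference was -0.63 (SE 0.235, adjusted p = 0.368 by limma), which did not pass the test. WT1 and WT4 also held the most bone and macrophage RNA. The 6 macrophage genes summed to 88.8, 70.0, 39.9 and 192 RPM in WT1 to WT4 and to 24.7 to 30.7 RPM in KO, and their part in the value of Acsl5 was not tested. Without WT1 and WT4 the log2 fold change of Acsl5 was -0.35.

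Acsl1, the main long-chain synthetase of muscle, read 141, 319, 209 and 186 RPM across the WT libraries and 230, 255, 205 and 225 RPM across the KO libraries. The KO values lay inside the WT range (log2 fold change 0.15, 95% interval -0.27 to 0.58). Acsl6, which prefers polyunsaturated fatty acids, had means of 32.8 ± 5.95 RPM (WT) against 38.2 ± 7.31 RPM (KO), with a log2 estimate of 0.21, or 0.40 without WT1 and WT4. Acsl4, which prefers arachidonic acid, averaged 26.6 and 27.1 RPM, and Acsl3, a synthetase of the endoplasmic reticulum and lipid droplets, 14.7 and 11.4 RPM. In Acsl3 a single library, WT3 at 23.7 RPM, lay far above the other 7 (8.57 to 14.4 RPM), and its log2 estimate of -0.28 was -0.47 without WT1 and WT4.

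**Figure D2:**
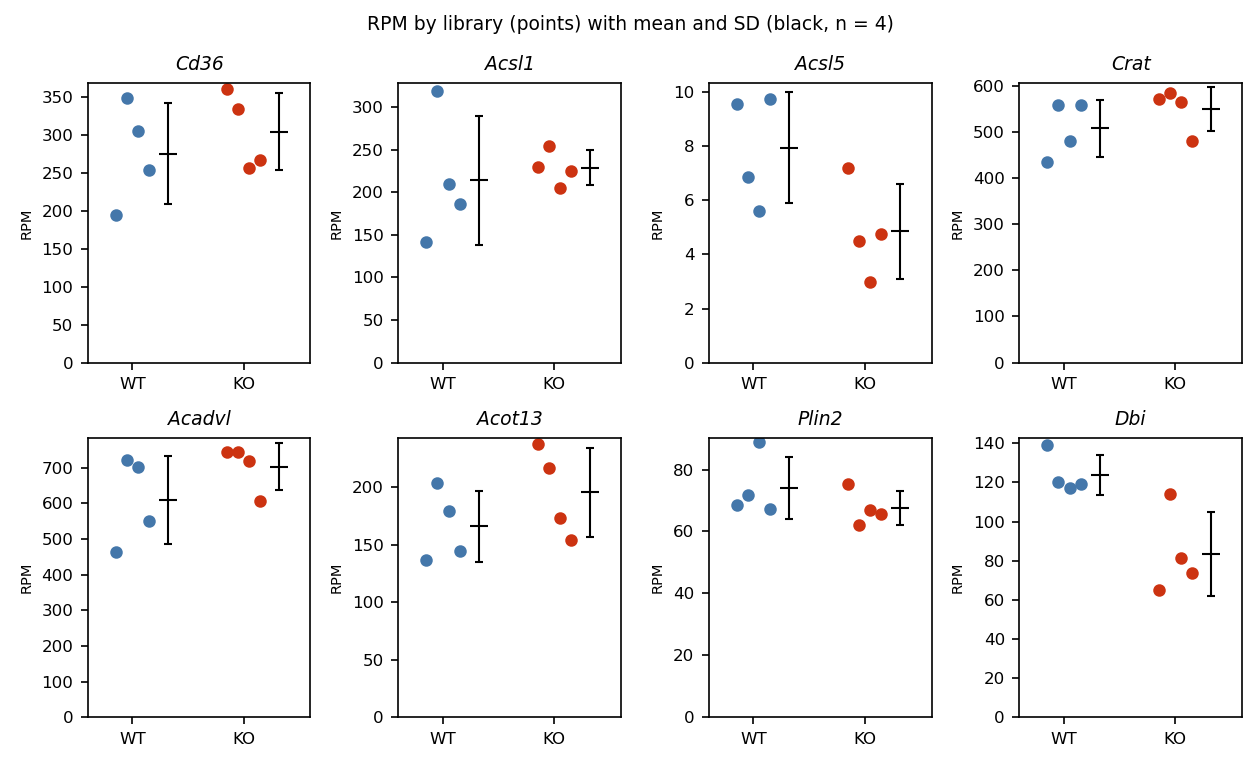
RPM of 7 members and of Dbi, from the wider pathway list, in each WT (blue) and KO (red) library, with the mean and SD of each group in black (n = 4 each). In the 7 members the groups overlap, whereas all 4 KO values of Dbi (65.0 to 114 RPM) lie below all 4 WT values (117 to 139 RPM).

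In the carnitine shuttle, Crat, which exchanges acetyl-CoA and acetylcarnitine, had the highest RPM. It read 434, 558, 479 and 559 RPM across the WT libraries and 571, 584, 565 and 480 RPM across the KO libraries. WT1 was lowest and KO4 lay among the WT libraries, and the difference was small and comparatively precise (log2 fold change 0.12, 95% interval -0.15 to 0.39). Cpt2, the inner membrane carnitine palmitoyltransferase, had means of 35.5 ± 8.56 RPM (WT) against 35.4 ± 4.76 RPM (KO) (0.01, interval -0.35 to 0.38). Cpt1a, the liver form of the outer membrane enzyme, averaged 6.04 ± 3.13 and 5.98 ± 1.06 RPM, where WT2 (10.7 RPM) stood apart from the other WT libraries (4.06 to 4.87 RPM). Mlycd, which removes malonyl-CoA, the inhibitor of the outer membrane step, averaged 22.3 ± 7.73 and 18.5 ± 2.48 RPM (-0.21, interval -0.65 to 0.24).

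The 15 oxidation genes were the largest step. Of these, 12 (80%) had a log2 fold change above 0, beside 40.8% of all targets. Their median was 0.11. Of these 12, 10 turned below 0 without WT1 and WT4, and Hadha and Acad9, below 0 here, turned above 0 with median-ratio or TMM scaling. None passed the test, and none reached an unadjusted p under 0.05 in the main limma fit. Acadm and Eci2 did so, higher in KO, with median-ratio scaling, TMM scaling, edgeR and DESeq2, and Acadvl with median-ratio scaling and DESeq2. Acad10 did so, lower in KO, with a pseudocount of 0.1 RPM, no filter, no intensity trend, sex as a term and without KO2. Hadh did so without WT2 and without KO4, Acadm without KO4 and Eci2 without WT3, all higher in KO. Without WT1 and WT4 the log2 estimates were 0.12 for Acadm, 0.07 for Eci2, -0.21 for Acad9 and -0.23 for Hadha. Acadvl, the very-long-chain acyl-CoA dehydrogenase, had the highest RPM. It read 463, 720, 701 and 550 RPM across the WT libraries and 743, 744, 719 and 607 RPM across the KO libraries. WT1 and WT4 were lowest, and WT2 and WT3 lay among the KO libraries. Its log2 fold change was 0.23 (95% interval -0.10 to 0.55, limma with BH, adjusted p = 0.753), and without WT1 and WT4 it was -0.02. The other acyl-CoA dehydrogenases of decreasing chain length had estimates of similar size. Acadl averaged 195 ± 50.1 and 215 ± 32.3 RPM in WT and KO, Acadm 276 ± 23.2 and 325 ± 58.4 RPM, and Acads 74.2 ± 13.8 and 83.3 ± 12.0 RPM.

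In the later steps of the cycle, Hadha, a subunit of the trifunctional protein that handles long chains, averaged 167 ± 45.8 and 164 ± 31.3 RPM (log2 fold change -0.003, 95% interval -0.41 to 0.40). Hadh, the short-chain hydroxyacyl-CoA dehydrogenase, averaged 112 ± 31.8 and 137 ± 30.1 RPM, with the highest estimate of all members at 0.31 (interval -0.14 to 0.76). Echs1, the short-chain hydratase, averaged 95.1 and 100.3 RPM, and the mitochondrial thiolase Acaa2 98.8 and 107 RPM. Decr1 and the isomerases Eci1 and Eci2 prepare unsaturated fatty acids for oxidation. Their log2 fold changes were 0.02, 0.06 and 0.25. Eci2 stood at 69.7 to 73.8 RPM in KO and at 46.3, 66.1, 70.8 and 60.4 RPM in WT, so 3 of 4 WT libraries lay below every KO library and WT3 lay inside the KO range.

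The remaining oxidation genes were less abundant or less certain. Acaa1a, a peroxisomal thiolase, averaged 38.6 and 41.6 RPM. Its close paralog Acaa1b has its own target, which read at most 0.501 RPM in any library. How reads that match both would be counted is unknown. Acad9, which also serves the assembly of respiratory complex I, averaged 12.3 ± 2.06 and 12.2 ± 2.70 RPM, and Acad11 averaged 42.9 and 43.9 RPM. Acad10 read 1.75, 1.43, 1.46 and 1.95 RPM across the WT libraries and 0.501, 1.69, 0.495 and 1.04 RPM across the KO libraries. KO2 lay inside the WT range and KO1 and KO3 rested on 3 and 4 reads, so the difference (log2 fold change -0.50, limma with BH, adjusted p = 0.543) is close to the floor.

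Acot13, a mitochondrial thioesterase that releases free fatty acid from acyl-CoA, read 137, 204, 179 and 144 RPM across the WT libraries and 238, 216, 173 and 154 RPM across the KO libraries. The 2 highest values were KO libraries and the 2 lowest were WT libraries, with overlap between (log2 fold change 0.23, 95% interval -0.13 to 0.59, and 0.012 without WT1 and WT4). Of the droplet coat proteins, Plin2, which covers droplets in most tissues, read 68.4, 71.7, 88.9 and 67.2 RPM across the WT libraries and 75.2, 62.2, 67.1 and 65.5 RPM across the KO libraries. The groups overlapped, with WT3 highest (log2 fold change -0.13, interval -0.40 to 0.15, and -0.24 without WT1 and WT4). Plin5, which ties droplets to mitochondria in oxidative tissue, averaged 31.8 ± 16.3 and 31.4 ± 4.33 RPM (log2 estimate 0.13, or 0.21 without WT1 and WT4). The 4 WT values of Plin5 (22.2, 49.4, 14.4 and 41.1 RPM) spread more widely than those of KO (29.7, 36.7, 26.5 and 32.5 RPM).

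Ucp3 had the widest range between libraries among members with group means above 2 RPM, at 3.89-fold. Ucp3, the muscle form, whose transport activity is debated and whose RNA rises with circulating fatty acids, read 68.0, 264, 105 and 87.6 RPM across the WT libraries and 239, 97.0, 187 and 81.8 RPM across the KO libraries. High and low libraries occurred in both groups (log2 fold change 0.27, 95% interval -0.57 to 1.12). Ucp2, the widely expressed form, which lies downstream of Ucp3 on the same strand of chromosome 7, read 40.7, 54.3, 35.1 and 82.8 RPM across the WT libraries and 48.5, 31.6, 43.3 and 26.3 RPM across the KO libraries. WT4 was highest and KO4 lowest, with overlap in between (log2 fold change -0.46, SE 0.25, limma with BH, adjusted p = 0.64). The log2 estimate of Ucp2 was -0.22 without WT4 and -0.26 without WT1 and WT4. WT4 also had the highest macrophage sum, and its part in the value of Ucp2 was not tested.

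The labels do not state sex, and Xist and 4 genes of the Y chromosome were used to assign it. Libraries 1 and 3 of each group were male and libraries 2 and 4 female, so each sex held 2 WT and 2 KO libraries. In Ucp2, both KO females lay below both WT females (28.96 against 68.6 RPM on average) and both KO males above both WT males (45.9 against 37.9 RPM). In Ucp3 the means went from 176 to 89.4 RPM in females, where the groups overlapped, and from 86.4 to 213 RPM in males, where they did not. Plin5 went from 45.2 to 34.6 RPM in females and from 18.3 to 28.1 RPM in males, without overlap in either sex. These genes were singled out for their order. Over the 34 members, both KO females lay above both WT females in 3 and below in 5, where 14.4% and 26.8% of all targets did so. Both KO males lay above both WT males in 10 members and below in 1, where 9.22% and 21.5% of all targets did so.

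The difference between the sexes in the effect of genotype was tested as an interaction in limma over all targets. The interaction (male effect minus female effect, log2) was 1.46 for Ucp2, 2.08 for Ucp3, 0.997 for Plin5, 1.86 for Angptl4 and 0.97 for Cpt1a, and these 5 of the 34 members reached an unadjusted p under 0.05 beside 4.66% of all targets. After BH adjustment none of the members passed (smallest adjusted p = 0.377, for Ucp2), and 0.0364% of all targets did. The Angptl4 value rests on KO females with 1 and 2 reads, under the floor of 3. The KO sexes also differed in remaining Sdhc, which read 16.9 and 18.7 RPM in the males and 46.5 and 54.3 RPM in the females. The sum of 6 slow fibre genes was 223 and 300 RPM in the KO males and 500 and 864 RPM in the KO females. The part of either in the interactions was not tested. Pdk4, a pyruvate dehydrogenase kinase that is a known PPAR target, was lower in KO than in WT by the female means (511 to 189 RPM) and higher by the male means (230 to 439 RPM). It read 217, 823, 243 and 198 RPM across the WT libraries and 355, 112, 523 and 265 RPM across the KO libraries. As a main effect, sex gave 0 members after adjustment, where 0.6% of all targets passed, and 3 at an unadjusted p under 0.05, where 10% did. Each combination of sex and genotype holds 2 libraries, and WT2 alone gives most of the female WT mean of Ucp3 and Pdk4.

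**Figure D3:**
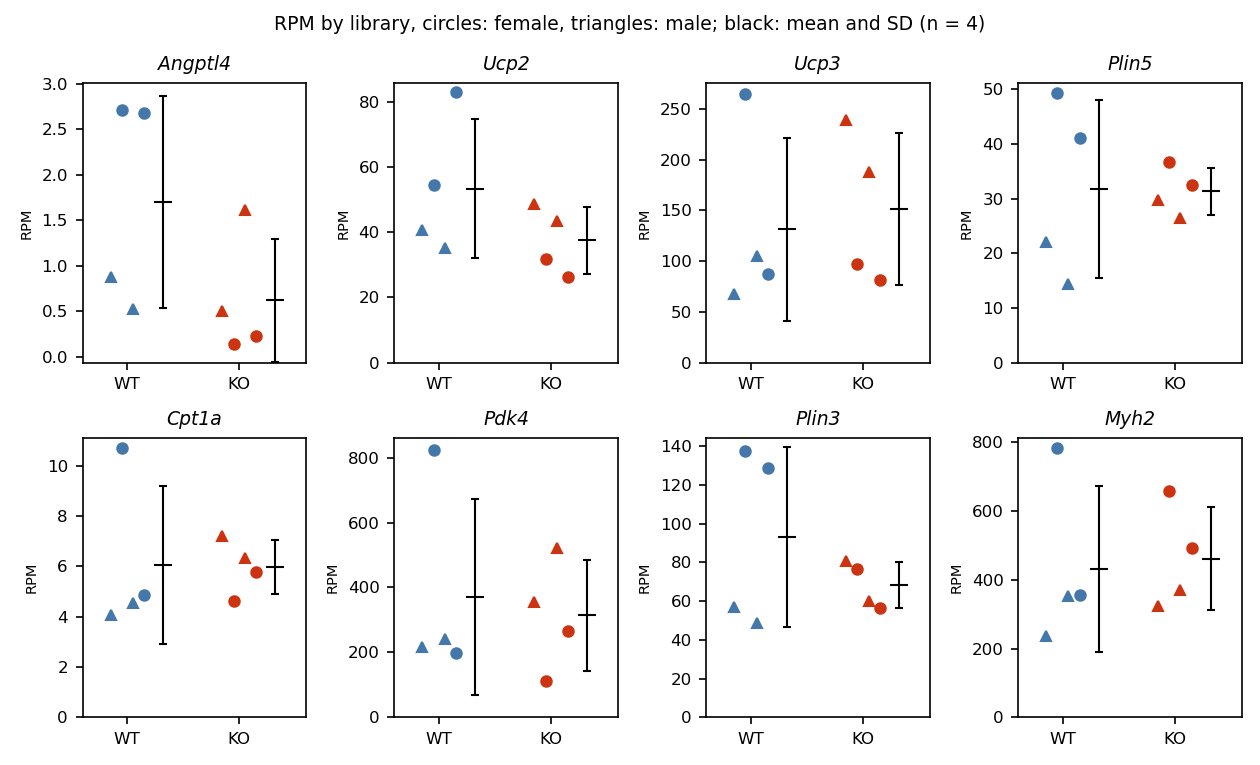
RPM of 5 members, of Pdk4 and Plin3 from the wider pathway list, and of the fibre marker Myh2 in each library, with circles for libraries assigned as female and triangles for male and the mean and SD of each group in black (n = 4 each). In Ucp2 and Plin5 the KO females lie below the WT females and the KO males above the WT males, but no member's interaction passed the adjusted threshold.

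Within WT, the extremes of many members fell in the same libraries. WT1 held the lowest value of the 8 libraries in 20 of the 34 members, or 58.8%, compared with 18.6% of all targets tested, and in 12 of the 15 oxidation genes. WT2 held the highest value in 15 members, or 44.1%, compared with 13.5% of all targets. No KO library was lowest in more than 5 members or highest in more than 6. Relative to the WT mean of each gene on the log2(RPM + 1) scale, the median deviation of the members came to -0.30, 0.32, 0.05 and -0.09 across the WT libraries, against 0.18, 0.17, -0.06 and -0.08 across the KO libraries. The 4 KO medians thus lay between those of WT1 and WT2. The coefficient of variation was larger in WT than in KO for 26 members, with medians of 24.1% and 16.5%. It was not computed over all targets, so the larger spread in WT is not shown to be particular to the members.

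Fibre markers differed between the same libraries. Myh2, the myosin of fast oxidative (type IIa) fibres, read 235, 782, 353 and 354 RPM across the WT libraries and 324, 657, 371 and 493 RPM across the KO libraries. WT1 was thus lowest and WT2 highest in Myh2, the libraries that most often held the lowest and the highest value of the members. The slow fibre sum was also lowest in WT1, at 180.5 RPM beside 181.4 RPM in WT3, but was not highest in WT2. The 6 slow fibre genes Myl2, Myl3, Tnnc1, Tnni1, Tnnt1 and Atp2a2 summed to 180.5, 293, 181.4 and 319 RPM in WT and to 223, 500, 300 and 864 RPM in KO, with the highest sum in KO4, where the median deviation of the members was below 0. The 6 fast fibre genes, led by Tnnt3 and Myh4, summed to 102511 to 141688 RPM across WT and 113870 to 150282 RPM across KO. WT1 also carried the second highest bone sum. The part of fibre composition and of bone RNA in the low values of WT1 was not tested.

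**Figure D4:**
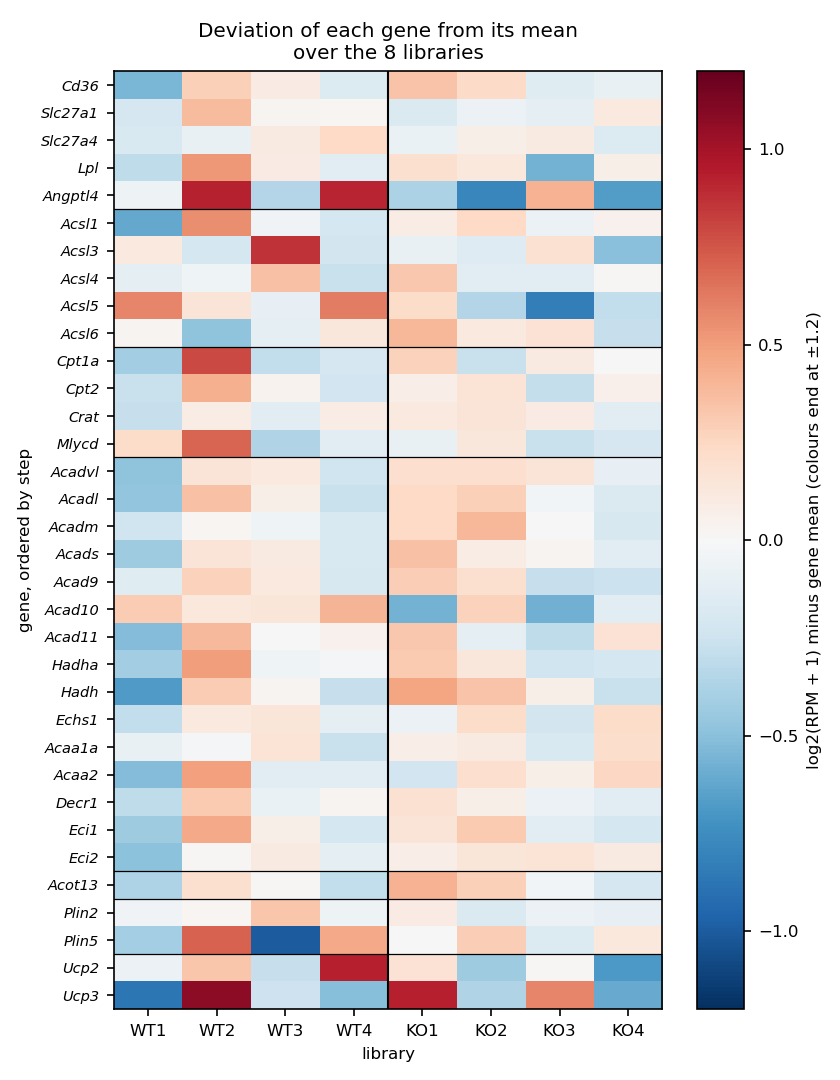
Deviation of each member from its mean over the 8 libraries, in log2(RPM + 1), with genes in rows ordered by step and libraries in columns. Blue dominates the oxidation genes in WT1 (lowest of all libraries in 12 of 15) and red dominates in WT2, while the KO columns are mixed.

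The promoters of 4 members are shown because these members had the highest RPM of their step and hold the half-site of nuclear receptors, AGGTCA. It was sought on either strand within 250 bases before a RefSeq start. A gene counted if any of its windows matched, and only matching windows are shown. The Cd36 window lies inside the gene (chromosome 5, 17781690 to 17888801, minus strand), so it belongs to an internal start. RefSeq promoter windows (GRCm38.p6) were found for 27 of the 34 members. The half-site occurred in 9 of the 27, namely Cd36, Acsl6, Cpt1a, Acadvl, Acadm, Echs1, Plin2, Plin5 and Ucp3, compared with 15.8% of the 27025 genes with a window. A direct repeat of AGGTCA spaced by 1 base, the classical PPAR element, was in none of the 27 and in 0.0407% of all genes. The extended half-site TCAAGGTCA, known for ERR receptors, was in Acsl6 and in 0.422% of all genes, and contains AGGTCA. A match describes these letters only. Each sequence runs 5′ to 3′ in the direction of the gene and ends at the base before its RefSeq start. Capitals mark AGGTCA or its reverse complement TGACCT.
Cd36 (chr5:17835897-17836146, minus strand): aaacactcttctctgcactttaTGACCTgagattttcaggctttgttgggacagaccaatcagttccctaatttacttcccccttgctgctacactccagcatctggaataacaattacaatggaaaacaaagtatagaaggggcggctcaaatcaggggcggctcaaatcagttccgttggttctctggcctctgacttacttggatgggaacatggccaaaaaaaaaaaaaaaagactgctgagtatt
Acadvl (chr11:70015429-70015678, minus strand): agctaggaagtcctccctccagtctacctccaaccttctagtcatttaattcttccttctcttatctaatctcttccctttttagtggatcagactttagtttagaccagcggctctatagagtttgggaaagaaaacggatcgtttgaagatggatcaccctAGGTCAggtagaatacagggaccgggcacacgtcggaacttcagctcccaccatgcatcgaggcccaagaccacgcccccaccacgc
Plin2 (chr4:86670060-86670309, minus strand): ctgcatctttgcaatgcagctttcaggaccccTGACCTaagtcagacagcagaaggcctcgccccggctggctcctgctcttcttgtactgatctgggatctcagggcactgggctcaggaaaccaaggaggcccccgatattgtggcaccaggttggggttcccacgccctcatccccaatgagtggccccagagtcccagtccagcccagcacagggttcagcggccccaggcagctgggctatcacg
Ucp3 (chr7:100472741-100472990, plus strand): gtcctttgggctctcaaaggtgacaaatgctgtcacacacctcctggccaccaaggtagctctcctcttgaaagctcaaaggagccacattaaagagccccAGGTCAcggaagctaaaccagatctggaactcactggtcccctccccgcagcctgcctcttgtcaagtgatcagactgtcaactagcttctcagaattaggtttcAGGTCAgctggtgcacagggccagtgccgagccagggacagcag
Ucp3 was the only one of the 4 with 2 half-sites, which begin 149 and 44 bases before the start. The size of the range differed among the 4 genes. The fold between the highest and lowest library was 1.43 for Plin2, 1.61 for Acadvl, 1.86 for Cd36 and 3.89 for Ucp3.

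A wider list of 78 pathway genes outside the members, covering other transport and oxidation genes, peroxisomal oxidation, triglyceride turnover and regulators, had 61 genes at a mean of at least 1 RPM. None passed the adjusted threshold. At an unadjusted p under 0.05 (limma), 3 were lower and 1 higher in KO, where 8.56% and 0.663% of all targets were so. Log2 fold changes above 0 numbered 27 of the 61, or 44.3%, beside 40.8% of all targets (median -0.03). Dbi, the acyl-CoA binding protein, carries acyl-CoA in the cytosol. Among the 61 genes tested, Dbi was the 1 gene in which the groups did not overlap. Plin1 and Cidea, which averaged under 1 RPM and were not tested, were also lower in every KO library than in any WT library. Their highest values were 1.83 and 0.609 RPM. Over all targets, 4.56% had all KO libraries below all WT libraries and 0.536% had them above. Dbi (chromosome 1, 120113280 to 120121078, minus strand, GRCm38) read 139, 120, 117 and 119 RPM across the WT libraries and 65.0, 114, 81.4 and 73.5 RPM across the KO libraries. KO2 was close to the WT libraries and the other 3 lay at 81.4 RPM or less. The means were 124 ± 10.1 and 83.5 ± 21.4 RPM (SD, n = 4 each), and the log2 difference was -0.59 (95% interval -0.94 to -0.25, limma with BH, adjusted p = 0.18), which did not pass the test. The 6 fibroblast genes summed to 799 to 994 RPM across WT and 384 to 720 RPM across KO, and the macrophage sum was also lower in every KO library. The part of these cells in the value of Dbi was not tested.

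The other 3 pathway genes at an unadjusted p under 0.05 were Plin4, Cidec and Abcd2. Plin4, a droplet coat protein of muscle and fat, averaged 248 ± 42.9 and 188 ± 41.7 RPM, and Cidec, which enlarges droplets in adipocytes, 4.30 ± 0.437 and 2.59 ± 1.52 RPM. Abcd2, which imports very-long-chain acyl-CoA into peroxisomes, averaged 28.3 ± 3.69 and 35.6 ± 2.72 RPM. Cidec belongs to the adipocyte list. The 4 genes of that list at 1 RPM or more all had log2 fold changes below 0, where 40.8% of all targets lay above 0. Of these 4, 2 reached an unadjusted p under 0.05 (limma). The part of adipocytes in the value of Cidec was not tested. All 5 tested genes of the other shuttle list lay above 0, by 0.03 to 0.17 on the log2 scale. Slc25a20, the carnitine-acylcarnitine carrier of the inner membrane, averaged 91.5 ± 21.6 and 95.3 ± 13.6 RPM. Etfa, a subunit of the flavoprotein that accepts the electrons of beta-oxidation, averaged 486 ± 118 and 532 ± 77.1 RPM, and Ppargc1a, the coactivator of oxidative genes, 172 ± 19.2 and 171 ± 4.88 RPM.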

How the data were processed

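The authors deposited 1 table of RPM values from the Ion AmpliSeq Transcriptome Mouse panel, with reads of a target scaled to the library total. RNA was extracted with TriZol and libraries were prepared on the Ion Chef robot, per the labels' protocols. Transcriptome Analysis Console is named in the submitters' processing notes. Aligner, build and counting rule were not given in the sources used here. Columns were matched to samples by barcode, and no column belonged to another sample.

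Low RPM values were whole multiples of 1 read, so reads were recovered by division. In each library 100.0% of values came within 0.1 of a whole read. Floors of 3 reads cover counting error only. Libraries of a group differed beyond counting error (chi-square over its degrees of freedom, 12.26 to 34.36). The labels do not state that each library is a separate animal. The p-values weigh the difference between groups against the spread between libraries, which may not be the spread between animals.

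Groups were compared on log2(RPM + 1) with limma 3.58.1 (R 4.3.3) for the 11004 targets averaging 1 RPM or more, with an intensity trend, two-sided, with BH adjustment over all targets. Fold changes on this scale understate changes of low genes. The alternatives included edgeR 4.0.16 and DESeq2 1.42.0 on recovered reads, which called 1 and 149 targets at an adjusted p under 0.05, against 3 by limma. The fit was tested on simulated data.

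The members and lists were chosen with earlier results of these data known. Members were given per library where the unadjusted p was under 0.05, the groups did not overlap or the gene had the highest RPM of its step; pathway genes were named at an unadjusted p under 0.05 or without overlap. All other values per library, and Pdk4, Plin3, Slc25a20, Etfa and Ppargc1a, were chosen after their values were seen.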

Additional observations from a re-analysis of the deposited data

Results flagged for a closer look

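Within groups of 4 libraries, 1 library stood far from the other 3 in 9 of 190 combinations of gene and group examined, or 4.7%, where chance flags about 1 in 20. Among the members this was Cpt1a, at 10.7 RPM in WT2 against 4.06 to 4.87 RPM in the other WT libraries. The others belonged to the wider pathway list. Pdk4 stood at 823 RPM in WT2 against 198 to 243 RPM in the other WT libraries. Dbi stood at 139 RPM in WT1 against 117 to 120 RPM, and Acat1, an acetoacetyl-CoA thiolase, at 138 RPM in WT4 against 164 to 167 RPM. Rxra, the partner of PPAR receptors, stood at 459.5 RPM in KO3 against 403 to 412 RPM.

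Etfdh and Echdc3 had 1 such library in each group. Etfdh, which passes the electrons of beta-oxidation to ubiquinone, stood at 8.92 RPM in WT3 and 8.16 RPM in KO2, against 44.2 to 51.1 RPM in the other WT and 45.2 to 51.5 RPM in the other KO libraries. Echdc3, an enoyl-CoA hydratase-like gene, stood at 7.31 RPM in WT4 and 9.69 RPM in KO1, against 0.439 to 0.799 RPM and 0.231 to 0.422 RPM. The cause was not tested.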

How the results depend on the processing

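The count of members past the adjusted threshold was 0 under every alternative run, and the lowest adjusted p of any member in any of them was 0.171, for Acsl5. The numbers shared by WT and KO libraries were not shown to pair them. The deviations of same-numbered libraries correlated at 0.0, 0.26, 0.13 and 0.1, and those of libraries with different numbers at -0.33 to 0.28. Same-numbered libraries also share the assigned sex, so number and sex are mixed in these values. A fit with the number as a replicate block gave 0 members past the adjusted threshold and 1 at an unadjusted p under 0.05. That latter count, 1 in the main comparison, was 3 with a pseudocount of 0.1 RPM, 3 without a filter, 0 under a 10 RPM filter, 4 with median-ratio scaling, 3 with TMM scaling, 2 without the intensity trend, 3 with edgeR, 4 with DESeq2, 2 with sex as a term and 0 without WT1 and WT4. It ranged from 0 to 4 when single libraries were left out. Beside Acsl5 and the oxidation genes, Angptl4 reached that level, lower in KO, with a pseudocount of 0.1 RPM and without a filter. Angptl4 also did so when WT1, WT3 or KO3 was left out singly. Acsl1 did so, higher in KO, without WT2, and Ucp2, lower in KO, without WT3 and without KO1. Median-ratio scaling moved the median of all targets from -0.05 to 0.00, and its split of targets at an unadjusted p under 0.05 was 347 higher and 759 lower, against 73 and 942.

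Signs changed in 21 members, none of them called under any setting, and 13 kept their sign. On the log2 scale, median-ratio, TMM, edgeR and DESeq2 in this order gave Slc27a4 0.016, 0.011, 0.011 and 0.015, Acad9 0.022, 0.018, 0.020 and 0.026, and Hadha 0.053, 0.048, 0.023 and 0.030. Quantile normalization gave Slc27a4 0.020 and Acad9 0.074. Without WT1 and WT4, the estimates were Cd36 -0.11, Acsl1 -0.18, Acsl4 -0.14, Cpt1a -0.22, Cpt2 -0.23, Acadvl -0.021, Acadl -0.13, Acads -0.047, Acad11 -0.17, Hadh -0.015, Echs1 -0.092, Acaa1a -0.017, Acaa2 -0.11, Decr1 -0.11, Eci1 -0.23 and Ucp3 -0.28. Leaving out single libraries gave ranges of -0.10 to 0.035 for Slc27a4, -0.21 to 0.08 for Lpl, -0.023 to 0.37 for Acsl1, -0.069 to 0.16 for Acsl4, -0.066 to 0.34 for Cpt1a, -0.073 to 0.16 for Cpt2, -0.13 to 0.060 for Acad9, -0.12 to 0.18 for Acad11, -0.14 to 0.16 for Hadha, -0.011 to 0.16 for Echs1, -0.0061 to 0.33 for Acaa2, -0.079 to 0.13 for Decr1, -0.073 to 0.22 for Eci1 and -0.19 to 0.38 for Plin5. The cause was not tested. Depth limits Angptl4 and Acad10, which had under 20 reads in some library.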

Other observations

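Values of 3 genes of triglyceride turnover outside the members are given by sex. They were chosen after their values were seen, and none passed the adjusted threshold. G0s2, an inhibitor of adipose triglyceride lipase, read 22.6, 50.4, 46.4 and 64.1 RPM across the WT libraries and 14.0, 98.6, 7.67 and 36.1 RPM across the KO libraries. Its log2 difference, male minus female with genotype in the model, was -1.601 (limma with BH, adjusted p = 0.082). Plin3, a droplet coat protein, read 57.0, 138, 48.8 and 129 RPM across the WT libraries and 80.6, 76.5, 60.3 and 56.3 RPM across the KO libraries. Both KO females lay below both WT females and both KO males above both WT males, as in Ucp2 and Plin5, and the interaction was 1.40 on the log2 scale (limma with BH, adjusted p = 0.322). Lpin1, a phosphatidate phosphatase, had the opposite order, with both KO females above both WT females and both KO males below both WT males (interaction -0.53). Among the members, Plin5, Acsl3 and Acaa2 reached an unadjusted p under 0.05 for sex (male minus female -0.79, 0.54 and -0.40), while 10% of all targets did so and none of the members passed after adjustment.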
